A study of Mus musculus with 2 samples.

Results

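Interfollicular basal keratinocytes are the dividing cells of the innermost layer of the epidermis between hair follicles (HF), resting on the basement membrane. Here they were chosen by their RNA counts, in single-cell transcriptomes of mouse dorsal epidermis at postnatal day 2 (P2). A barcode was first kept if its detected genes numbered more than 1000 but fewer than 8000 and mitochondrial genes gave less than 15% of its unique molecular identifiers (UMIs). A kept cell was a member if Krt5 and Krt14 together reached 20 UMIs per 10000 and Krt1 and Krt10 together stayed under 50 per 10000. At least 3 of the 7 genes Sox6, Tspear, Bmpr1b, Ptprz1, Slc24a3, Wnt16 and Wnt4 also had to be detected, and at most 1 of the 7 follicle genes Spon1, Ghr, Lgr5, Adamts19, Shisa2, Aldh3a1 and Scube2. By this rule 1126 of 8206 kept cells, out of 10622 deposited barcodes, were basal cells of the interfollicular epidermis (IFE): 434 in the control library and 692 in the Gli2EKO library.

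The study asked what the Hedgehog effector Gli2 does in skin epithelium. Its P2 data hold 2 libraries of dissociated epidermal whole mounts from back skin, 1 per genotype, counted by a droplet assay that captures the polyA end of transcripts. Gli2EKO mice carried a K14Cre transgene and floxed Gli2 on both alleles (K14Cre tg;Gli2 fl/fl), so that Cre came from the keratin 14 promoter, which is active in keratinocytes from before HF formation. Controls were floxed littermates without Cre on the same C57BL/6N background, which the labels call WT. How many mice each library pooled is not stated, and with 1 library per genotype no spread between animals can be given. No p-value is therefore given, and every interval below is a 95% interval that covers counting error only.

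The control library held 6326 barcodes with 71021773 UMIs and the Gli2EKO library 4296 barcodes with 48866478 UMIs, and no barcode was shared. Members were deeply sampled and alike in depth, with a median of 15251.5 UMIs and 4268.5 detected genes in control and 14296 UMIs and 4099.5 genes in Gli2EKO cells. Their summed UMIs, 7292596 and 10837952, are the base of all levels below, which are given as counts per 1000000 UMIs (CPM). Mitochondrial genes took a median of 2.66% and 2.47% of their UMIs. Both libraries held Y-linked transcripts in these cells (Ddx3y 68.8 and 61.7 CPM) and next to no Xist, the X-inactivation RNA, with 1 UMI each. The sex-linked genes did not set the libraries apart (0 higher and 0 lower of 4 tested, median log2 ratio -0.13, called at 1.5-fold), and how many mice of either sex each library held is not stated.

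Basal keratinocytes hold on to the basement membrane through hemidesmosomes and integrins, pair keratin 5 with keratin 14, and depend on the transcription factor p63. Their daughters leave the membrane, switch to keratins 1 and 10 and become spinous cells. HFs start as placodes of the same layer under Wnt, Eda and Sonic hedgehog signals, and Gli1, Gli2 and Gli3 carry the Hedgehog signal into the nucleus.

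Marker levels were read first. Krt14 stood at 13857 CPM in control and 15574 CPM in Gli2EKO cells and Krt5 at 8596 CPM in control and 9219 CPM in Gli2EKO cells, and the interfollicular genes followed: Wnt4 648 and 660.4 CPM, Sox6 513 and 475 CPM, Tspear 297 and 316 CPM, Bmpr1b 228 and 247 CPM and Wnt16 129 and 123 CPM. These genes chose the cells and are a description only. Among genes that the rule did not use, Col17a1, the hemidesmosomal collagen, reached 759 and 573 CPM in control and Gli2EKO members against 152 and 111 CPM in spinous cells (Krt1 and Krt10 at 50 or more per 10000, Lor under 20) and 244 and 219 CPM in follicle cells (basal keratins as above, 2 or more of the follicle genes, fewer than 3 interfollicular genes). Itga6, its integrin partner, reached 482 and 363 CPM against 141 and 113 CPM in spinous and 192 and 173 CPM in follicle cells. Krt15, a keratin of basal cells, lay at 4008 and 3323 CPM against 1455 and 1507 CPM in follicle cells, whereas Trp63, which encodes p63, was close in both cell types (498 and 401 CPM against 493 and 498 CPM). These genes were picked from longer lists. Of 5 basal keratins, 3 (Krt5, Krt14 and Krt15) were at least 2-fold higher than in follicle cells in both libraries. Krt17 and Krt19 were at least 2-fold lower. Of 25 hemidesmosome and basement membrane genes 6 were higher and 5 lower.

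**Figure D1:**
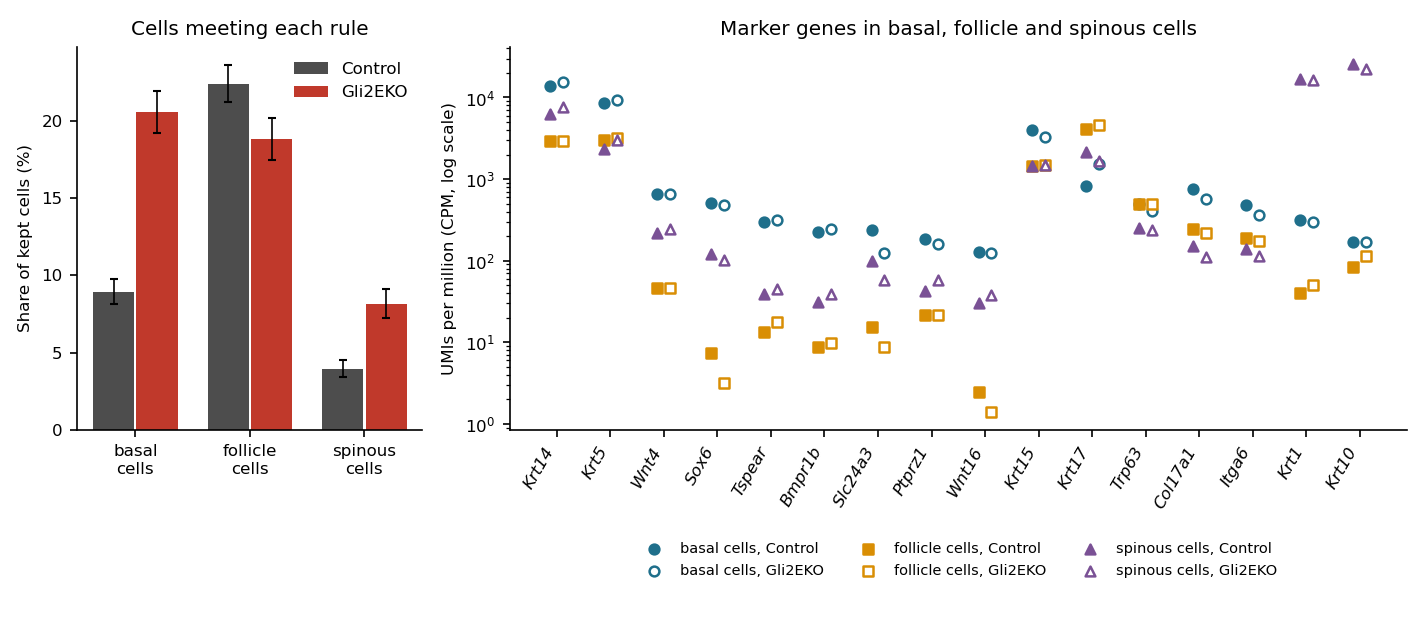
Left, share of kept cells in % that met the rules for basal, follicle and spinous cells in the control and Gli2EKO library, with exact 95% intervals; right, CPM of marker genes on a log scale in the same cells, filled for control and open for Gli2EKO. Basal cells were 8.96% of control and 20.6% of Gli2EKO kept cells, and the interfollicular genes were highest in them by construction.

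Members made up 8.96% of kept cells in the control library (434 of 4844, Clopper-Pearson interval 8.17 to 9.8) and 20.6% in the Gli2EKO library (692 of 3362, 19.2 to 22), a ratio of 2.3 (2.03 to 2.6). Spinous cells moved with them, from 3.94% (191 cells) to 8.12% (273 cells), while follicle cells went from 22.4% (1087 cells) to 18.8% (633 cells). Among cells with basal keratins alone, which leaves dermal and immune cells out of the count, the share of members was 20.7% in control and 38.9% in Gli2EKO, a ratio of 1.88 (1.66 to 2.12). The interfollicular share was thus higher in the Gli2EKO library by either count. Both counts rest on the same rule, and how the ratio moves with its follicle limit is given below. In follicle cells the follicle genes of the rule summed to 1130 CPM in control and 1085 CPM in Gli2EKO. Among them Adamts19 was lower in Gli2EKO (178 and 63.5 CPM) and Spon1 higher (124 and 145 CPM). Shares within a library sum to a whole, so more interfollicular and fewer follicle cells cannot be told apart, nor can the dissociation of 1 tissue sample from its genotype.

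The rule had cells on either side of each limit. Of the 7 interfollicular genes, 169 of the 434 control and 219 of the 692 Gli2EKO members had all 7, and 50 and 64 had the minimum of 3. Another 87 and 82 cells met every other condition but fell short on these genes, and 119 and 83 cells were left outside by their follicle genes alone. Just inside the keratin limit, with 25 or more Krt1 and Krt10 UMIs per 10000, were 21 control and 31 Gli2EKO members, and just outside it, with up to 100, were 22 and 29 cells. One follicle gene was detected in 230 control members (53%) and 305 Gli2EKO members (44.1%), none in the others.

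Set against follicle cells of their own library, basal cells had 486 of 11799 tested genes at least 2-fold higher in both libraries (4.12%) and 1050 at least 2-fold lower (8.9%). Because genes of the rule separated these groups, the counts describe the groups and test nothing. Among the 10 genes furthest above follicle cells, Sox6 and Wnt16 belong to the rule. Wnt3, a canonical Wnt ligand, had 148 and 128 CPM in control and Gli2EKO members and 1.44 and 1.26 CPM in follicle cells. Pglyrp4, a peptidoglycan recognition protein of epithelial defence, had 43.6 and 39.4 CPM against 0.206 and 0.252 CPM. Transglutaminase 3 (Tgm3) had 133 and 91.7 CPM against 1.17 and 1.39 CPM, and the leukotriene receptor gene Cysltr1 22.9 and 26.5 CPM against 0.275 and 0.252 CPM. Il22ra2, the soluble decoy receptor for interleukin 22, was found at 9.74 and 5.81 CPM and was at 0.0687 CPM or less in follicle cells. Gdpd2, Serpinb7 and Fcgbp completed this set. Not all of it set basal apart from spinous cells. Serpinb7 had 29.8 and 24.4 CPM in members against 57.9 and 46.5 CPM in spinous cells, and Gdpd2 32.4 and 25.6 against 36.9 and 26.9 CPM. Wnt3 (79.4 and 66.6 CPM in spinous cells) and Tgm3 (88.9 and 78.2 CPM) were not 2-fold higher in basal cells. The others of the set were.

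At the other end stood Scrg1, without a UMI in control members and at 0.277 CPM in Gli2EKO members, against 39.3 and 34.6 CPM in follicle cells. Fndc1 (0.823 and 1.11 CPM against 93.8 and 77.6 CPM), Cmah, an enzyme of sialic acid synthesis (1.37 and 1.11 CPM against 136 and 73.5 CPM), and the calmodulin regulator Pcp4 were next to absent in the same way. Crispld1, Wfdc18 and Rnase12 were also in this set, and Adamts19, Shisa2 and Spon1 were placed there by the rule. Of the follicle keratinocyte list, 12 of 18 tested genes were lower in basal than in follicle cells in both libraries and 2 were higher. Of the Wnt ligands 7 of 11 were higher in basal cells and 1 lower, but Wnt4 and Wnt16 are among the 7 by the rule. The hemidesmosome and basement membrane list differed in both directions, with 6 of 25 genes higher and 5 lower.

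Against spinous cells 1614 of 10538 tested genes were at least 2-fold higher in basal cells of both libraries (15.3%) and 503 lower (4.77%). All 36 S phase genes tested and 44 of 50 G2M genes were among the higher ones, as were 21 of 25 genes of hemidesmosome and basement membrane, 11 of 13 Hedgehog genes and 10 of 13 TGF-beta genes. Early differentiation genes were lower in basal cells for 21 of 23 and cornified envelope genes for 9 of 9. Krt1 and Krt10, which are in the early differentiation list, separated the groups, so these counts describe the groups and test nothing. Named genes above spinous cells included Wnt3a (26.9 and 23.4 CPM in members, 0.651 and 1.57 CPM in spinous cells), the Notch ligand gene Dll1 (24.8 and 17.9 CPM against 1.3 and 1.41 CPM), the alpha-catenin relative Ctnnal1 (105 and 96.7 CPM against 8.24 and 5.95 CPM) and Mras, a Ras family GTPase (8.91 and 20 CPM against 0.434 and 1.41 CPM). Slco2a1, a prostaglandin transporter, and Cnih2 were also among them. So was Aldh3a1, a follicle gene of the rule, which was found in only 12 control and 17 Gli2EKO members.

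The melanocyte genes Dct, Pmel and Tyr were the other named genes above spinous cells, and they sat in few members. Dct had 733 UMIs in 46 control members, 458 of them in 1 cell, and 958 UMIs in 60 Gli2EKO members, 256 in 1 cell. Below spinous cells, by the same ranking, came filaggrin (Flg, 4.66 and 6 CPM against 830.3 and 473 CPM), the keratin Krt10 of the rule, the Skint family genes Skint6 and Skint9, histidase (Hal, 0.274 and 0.185 CPM against 54.6 and 27.7 CPM), the serpins Serpinb3a and Serpinb12, Ano7, Gsta2 and Aadacl2fm1. In members all of these but Krt10 stayed at or under 6 CPM, the level of Flg in Gli2EKO cells.

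Members were not uniform. Per cell, Krt14 had a median of 128 UMIs per 10000 (quartiles 86.4 and 183) in control and 157 (108 and 209.8) in Gli2EKO cells. Krt17, a keratin of follicles and of stressed epidermis, had a median of 2.18 UMIs per 10000 (quartiles 0.634 and 9.22) in control and 3.88 (0.725 and 16.6) in Gli2EKO cells. The top 10% of cells began at 23.8 and 40.4 UMIs per 10000. Stfa1, a cystatin of the epidermis, had a median of 9.82 UMIs per 10000 (quartiles 1.92 and 18.6) in control and 13.8 (5.06 and 24.9) in Gli2EKO cells, and the imprinted RNA H19 of 4.86 UMIs per 10000 (quartiles 0 and 14.6) in control and 8.68 (1.14 and 17.8) in Gli2EKO cells. H19 was found in 68.4% of control and 80.5% of Gli2EKO members.

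Members also varied with their level of Krt1 and Krt10, and whether this axis is differentiation was not tested. Members were divided into bins of under 5, 5 to under 20, and 20 to under 50 Krt1 and Krt10 UMIs per 10000, which held 342, 67 and 25 control cells and 560, 90 and 42 Gli2EKO cells. Krt1 and Krt10 made the bins and are not a result. Between the outer bins, 68 of 9186 tested genes were at least 2-fold higher with more of these keratins in both libraries (0.74%) and 317 lower (3.45%). Ptgs1, the constitutive cyclooxygenase, increased through the bins, at 9.36, 36.8 and 113 CPM in control and 11.8, 56.2 and 131 CPM in Gli2EKO cells. Zfp750, a factor of epidermal differentiation, did so too, at 8.12, 24.8 and 54.3 CPM in control and 9.52, 21 and 90 CPM in Gli2EKO cells. Krtdap, a secreted protein of early differentiation, had 1272, 2137 and 3376 CPM in control and 1618, 2604 and 4574 CPM in Gli2EKO cells. The Notch target Hes1 went from 75.9 to 228 CPM in control and from 80.7 to 247 CPM in Gli2EKO members between the outer bins.

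Genes of the cycle ran the opposite way. The S phase list summed to 2632, 2251 and 1254 CPM in control and 2651, 1895 and 1635 CPM in Gli2EKO cells, from the lowest to the highest bin. The G2M list did not fall between the upper bins in Gli2EKO, at 7003, 4665 and 2291 CPM in control and 6706, 3665 and 3911 CPM in Gli2EKO cells. Lgr6, an R-spondin receptor of stem cells, fell through the bins in both libraries, at 89.2, 40.2 and 21.7 CPM in control and 52, 21.7 and 8.88 CPM in Gli2EKO cells. Gli1 went from 6.53 CPM to none in control and from 12 to 2.54 CPM in Gli2EKO members. The early differentiation list, which includes Krt1 and Krt10, summed to 5784, 9552 and 16046 CPM in control and 5708, 9940.0 and 19869.8 CPM in Gli2EKO cells. The basal keratin list was also higher in the upper bins, at 25403, 32648 and 36907 CPM in control and 28110, 36881 and 34207 CPM in Gli2EKO cells. The hemidesmosome and basement membrane list had 4587, 4823 and 4517 CPM in control and 3694, 3873 and 2366 CPM in Gli2EKO cells. Immune markers summed to 8.3, 40.2 and 985 CPM in control and 24.8, 6 and 8.88 CPM in Gli2EKO cells. The top bin holds 25 and 42 cells, and single cells weigh on it. Genes of this paragraph and the one before it were chosen after their values were seen.

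Proliferation was read from Mki67 and Top2a, nuclear proteins of dividing cells. After every cell was thinned to 2000 UMIs, 41% of control members (178 of 434, 36.3 to 45.8) and 36.2% of Gli2EKO members (250 of 690, 32.6 to 39.9) had a UMI of either gene, and the intervals overlap. Without thinning the shares were 70.3% (65.7 to 74.5) and 59.5% (55.8 to 63.2), and the intervals do not. Spinous cells thinned in the same way gave 13.8% in control and 11.7% in Gli2EKO, and 56% and 40.3% without thinning. Their median depth before thinning was 21811 and 21209 UMIs against 15251.5 and 14307 in members. After thinning, immune and endothelial cells gave 44.4% and 36.8%, at medians of 10359 and 11851.5 UMIs, and follicle cells 42.6% and 43.4% (39.5 to 47.4 in Gli2EKO), at medians of 11957 and 11017 UMIs. Without thinning, follicle cells gave 69.4% and 62.9% and immune and endothelial cells 64.7% and 57.1%, so these shares were lower in Gli2EKO too. No S phase gene passed 1.5-fold between genotypes (0 higher and 0 lower of 36 tested, median log2 ratio 0.01), and of the G2M genes (0 higher and 1 lower of 50 tested, median log2 ratio -0.03) only Nuf2 passed, at 32.5 CPM in control and 21.3 CPM in Gli2EKO cells. Mki67 itself had 439 CPM in control and 298 CPM in Gli2EKO cells (log2 ratio -0.56, -0.63 to -0.49). Among G1 regulators (1 higher and 0 lower of 11 tested, median log2 ratio 0.01) the inhibitor Cdkn1c was called (18.9 and 30.5 CPM), and cyclin D2 (Ccnd2) had 1279 and 1266 CPM.

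The targeted gene comes first in the comparison of genotypes. Gli2 (GRCm39 chromosome 1, 118761858 to 118982598, minus strand) was counted at 64 CPM in control and 102 CPM in Gli2EKO cells, 1.59-fold higher in Gli2EKO members (log2 ratio 0.67, 0.51 to 0.83), and in 222 of 434 control and 440 of 692 Gli2EKO cells. The assay reads the polyA end and the deleted exons are not stated here, so transcripts of the recombined allele may be counted and this value checks nothing about the labels. In follicle cells of the same libraries Gli2 was level, at 107 and 108 CPM.

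Across all genes that reached 50 UMIs when the libraries were added up, 377 of 11610 (3.25%) were at least 1.5-fold higher in Gli2EKO members and 621 (5.35%) at least 1.5-fold lower, 8.6% in either direction. The median log2 ratio was -0.05. Calls in every list below are to be read against these shares, 3.25% higher and 5.35% lower. Not every call rests on many cells. In 54 of the lower genes more than 50% of the control UMIs, and in 36 of the higher genes more than 50% of the Gli2EKO UMIs, came from a single member. Without the top cell of each gene, an alternative chosen after the data were seen, 369 genes were called higher and 488 lower. With ratios taken over the median ratio the counts were 441 and 523, and without the highest doublet scores 400 and 496. Of the 621 lower genes, 65 were also higher in basal than in follicle cells and 103 lower, and of the 377 higher genes 25 and 47 were, where 4.12% and 8.9% of all genes tested against follicle cells were so called.

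Hedgehog genes as a list were called more often than all genes (4 higher and 1 lower of 15 tested, median log2 ratio 0.13), with 26.7% higher against the 3.25% of all genes. Of the 4 higher calls only Ptch1 stayed past 1.5-fold in every alternative. With 2 follicle genes allowed, Gli1 fell to a log2 ratio of 0.53 and Kif7 to 0.24. Gli2 fell to 0.52 without the members that scored highest on the list of dissociation stress genes. Ptch1, the receptor and the best known target of the pathway, was 2.13-fold higher at 68.8 CPM in control and 147 CPM in Gli2EKO cells (log2 ratio 1.09, 0.94 to 1.24) and was found in 192 of 434 control and 410 of 692 Gli2EKO cells. Gli1, the transcriptional target and activator, had 5.62 CPM in control and 10.6 CPM in Gli2EKO cells (log2 ratio 0.91, 0.39 to 1.47) in 27 and 92 cells. Both target genes were thus higher in Gli2EKO members. In follicle cells the direction was the reverse: Ptch1 had 208 and 141 CPM there (log2 ratio -0.56, -0.66 to -0.46), while Gli1 was counted at 33.8 and 22.1 CPM (-0.61, -0.87 to -0.36). The difference between the cell types was not tested.

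Of the remaining calls in this list, Gli2 is described above, and Kif7, a ciliary regulator of Gli proteins, had 2.33 and 3.6 CPM with an interval that spans 0 (0.60, -0.23 to 1.54). Hhip, the secreted inhibitor, had 5.76 CPM in control and 1.29 CPM in Gli2EKO cells, but its 42 control UMIs lay in 13 cells and its 14 Gli2EKO UMIs in 6. The co-receptor gene Gas1 (259.7 and 359 CPM, log2 ratio 0.47) did not pass 1.5-fold, nor did Gli3, the main repressor (91.9 and 67.1 CPM, -0.45). Smo, the signal transducer, did not move, at 99.3 and 97.2 CPM. Disp1, which releases the ligand, had 30.3 and 36.7 CPM. The ligand gene Shh had 86 UMIs in 14 control and 101 in 20 Gli2EKO members.

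**Figure D2:**
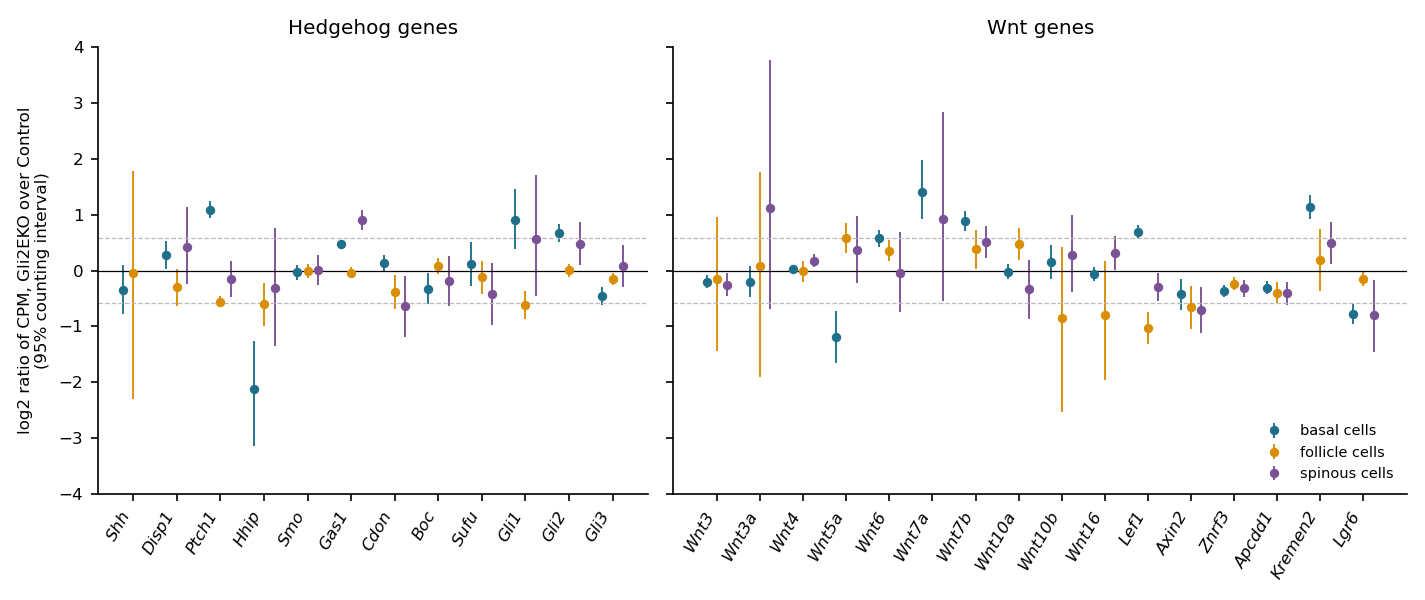
log2 ratio of CPM, Gli2EKO over control, with 95% counting intervals, for Hedgehog genes (left) and Wnt genes (right) in basal, follicle and spinous cells; dashed lines mark 1.5-fold, and points with a count of 0 or an interval beyond the axis were left out. Ptch1 and Gli1 lie above 0 in basal cells (1.09 and 0.91) and below 0 in follicle cells (-0.56 and -0.61), as does Lef1 (0.68 and -1.02).

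Wnt ligands were split (2 higher and 1 lower of 12 tested, median log2 ratio -0.04). That is 16.7% higher and 8.33% lower, against 3.25% and 5.35% of all genes. Wnt7a and Wnt7b, which are close relatives, were the higher ones: Wnt7a had 5.35 CPM in control and 14.4 CPM in Gli2EKO cells (log2 ratio 1.41, 0.91 to 1.97) and Wnt7b 46.8 CPM in control and 86.4 CPM in Gli2EKO cells (0.88, 0.70 to 1.07). Wnt5a, a ligand of the non-canonical branch, was lower at 14.3 CPM in control and 6.27 CPM in Gli2EKO cells (-1.18, -1.65 to -0.73), but among members low on the S and G2M lists its log2 ratio was 0.20. Wnt10a (log2 ratio -0.02) and Wnt3 (-0.20) did not pass, nor did Wnt4 (0.03) and Wnt16 (-0.06), which the rule used to choose the members. Wnt6 was just under the limit, at 68.6 and 102 CPM (0.57). Among Wnt receptors (0 higher and 1 lower of 16 tested, median log2 ratio -0.12) Lgr6 was lower, at 77.1 CPM in control and 45.1 CPM in Gli2EKO cells (log2 ratio -0.77, -0.95 to -0.59).

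Wnt targets and inhibitors went in both directions (3 higher and 2 lower of 15 tested, median log2 ratio -0.24). Higher calls were 20% and lower calls 13.3% of them, against 3.25% and 5.35% of all genes. Lef1, the nuclear partner of beta-catenin and a placode gene, was 1.6-fold higher at 100.4 CPM in control and 161 CPM in Gli2EKO cells, in 196 of 434 control and 450 of 692 Gli2EKO cells. In follicle cells it was lower, at 32.4 and 15.9 CPM, and this difference was not tested either. Kremen2, a receptor for Dickkopf inhibitors, had 32.1 CPM in control and 70.3 CPM in Gli2EKO cells (log2 ratio 1.13, 0.92 to 1.35), and Dkk3 8.91 and 13.5 CPM. Dkk3 came within 1.5-fold, at a log2 ratio of 0.096, when the rule was applied to thinned cells. The secreted inhibitors Sfrp1 (19.6 and 12 CPM) and Wif1 (17.1 and 10.8 CPM) were lower, though Wif1 had a log2 ratio of 0.83 among members low on the S and G2M lists. Feedback targets of canonical signalling did not pass 1.5-fold: Axin2 had a log2 ratio of -0.42, Znrf3 of -0.36 and Apcdd1 of -0.31. Lef1 was thus called higher, while these feedback targets were not called in either direction. Among members low on the S and G2M lists the log2 ratio of Axin2 was -0.044.

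The 15 genes with the lowest and the 15 with the highest ratio, among genes with a combined count of 100 UMIs or more and 10 or more per library, fell into those carried by many members and those carried by a few. Of the 15 lowest, 8 had under 10% of their control UMIs in a single cell. Hsd17b14, a hydroxysteroid dehydrogenase, was 11.8-fold lower at 15.8 CPM in control and 1.29 CPM in Gli2EKO cells (log2 ratio -3.57, -4.53 to -2.80) and was found in 90 of 434 control and 13 of 692 Gli2EKO cells. Il1r2, the decoy receptor for interleukin 1, was 4.95-fold lower at 86 CPM in control and 17.3 CPM in Gli2EKO cells (-2.31, -2.55 to -2.07), in 237 of 434 control and 106 of 692 Gli2EKO cells. Igfbp3, which binds insulin-like growth factors, had 121 CPM in control and 29.1 CPM in Gli2EKO cells (-2.06, -2.25 to -1.87). In these 3 genes the difference shows in the share of cells as well as in the level. Other cell types shared part of it. Hsd17b14 was also lower in follicle cells (log2 ratio -2.53) and spinous cells (4.12 and 0 CPM). Il1r2 and Igfbp3 were also lower in spinous cells (-1.53 and -1.52) but not in follicle cells (0.24 and 0.12).

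Krt77, a keratin of the suprabasal epidermis, had 47.7 CPM in control and 12.3 CPM in Gli2EKO cells, and Fcgbp, an IgG-binding mucin-like protein that also ranks among the genes highest over follicle cells, had 57.3 CPM in control and 16.1 CPM in Gli2EKO cells. Skint7, of a family of epidermal membrane proteins, had 12.5 CPM in control and 3.51 CPM in Gli2EKO cells. Cwh43 (23.7 and 7.2 CPM) and Adamtsl1 (55.1 and 17.1 CPM) complete the 8 broadly carried genes. Msx1, a homeobox gene, and Aldh1a3, a retinoic acid synthase, were lower as well (13 and 2.95 CPM and 15.1 and 3.32 CPM) with 12.6% and 18.2% of control UMIs in 1 cell and 32.6% and 50% in 3 cells. Each of these 10 genes had a negative ratio under every alternative that was run. In spinous cells the log2 ratio was -1.83 for Krt77, -1.51 for Fcgbp, -2.18 for Msx1, -1.45 for Aldh1a3 and -1.41 for Adamtsl1. It was nearer 0 there for Skint7 (-0.33) and Cwh43 (-0.13). In follicle cells it was -1.12 for Krt77, -1.34 for Cwh43, -1.26 for Msx1, -1.79 for Aldh1a3 and -0.63 for Adamtsl1. Fcgbp (-1.19) and Skint7 (0.88) had follicle intervals that span 0.

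On the higher side 9 of 15 genes had under 10% of their Gli2EKO UMIs in a single cell. Gadl1, an amino acid decarboxylase, was 6.18-fold higher at 2.19 CPM in control and 13.9 CPM in Gli2EKO cells (log2 ratio 2.63, 1.92 to 3.51), in 12 of 434 control and 72 of 692 Gli2EKO cells. Tgm5, a transglutaminase of the epidermis, had 2.88 CPM in control and 12.9 CPM in Gli2EKO cells (2.14). Plcb1, a phospholipase C, had 11 CPM in control and 37.5 CPM in Gli2EKO cells (1.76, 1.42 to 2.14) and was found in 39 of 434 control and 166 of 692 Gli2EKO cells. In spinous cells the log2 ratio was 0.75 for Gadl1, -0.16 for Tgm5 and 0.31 for Plcb1. In follicle cells it was 0.35, 0.11 and -0.79. Phlda2 and Slc22a18, neighbouring imprinted genes, had 3.84 and 14.7 CPM and 7.27 and 20.2 CPM, and both are described further below. Wnt7a is given above. Hmga2, a chromatin protein of growing tissue (3.02 and 9.23 CPM), C1s1, a complement protease (2.47 and 7.57 CPM), and Aff2 (2.88 and 9.87 CPM) complete the set. In all 9 the ratio stayed positive under every alternative that was run.

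Most of the other extreme genes rest on few cells. A single control member held 126 of 135 control UMIs of H2-Aa, 121 of 137 of H2-Ab1 and 338 of 372 of Cd74, the genes of class II antigen presentation, and the log2 ratio of each turned positive in at least 2 alternatives. That cell had 26167 UMIs and 450 of the 547 control UMIs of the immune list. Krtap8-1, a hair keratin-associated protein, had 184 of 310 UMIs in 1 control cell, and the hair keratin Krt35 had 123 of 293. A single Gli2EKO member held 453 of 525 Gli2EKO UMIs of Elovl4, 65 of 93 of Far2 and 110 of 166 of Spink5, genes of lipid and barrier formation. C1qa, of macrophages, had 57 of 90 in 1 cell and Defb6 87 of 181. Ch25h was less concentrated, with 27 of 146 in 1 cell and 29 cells in all.

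**Figure D3:**
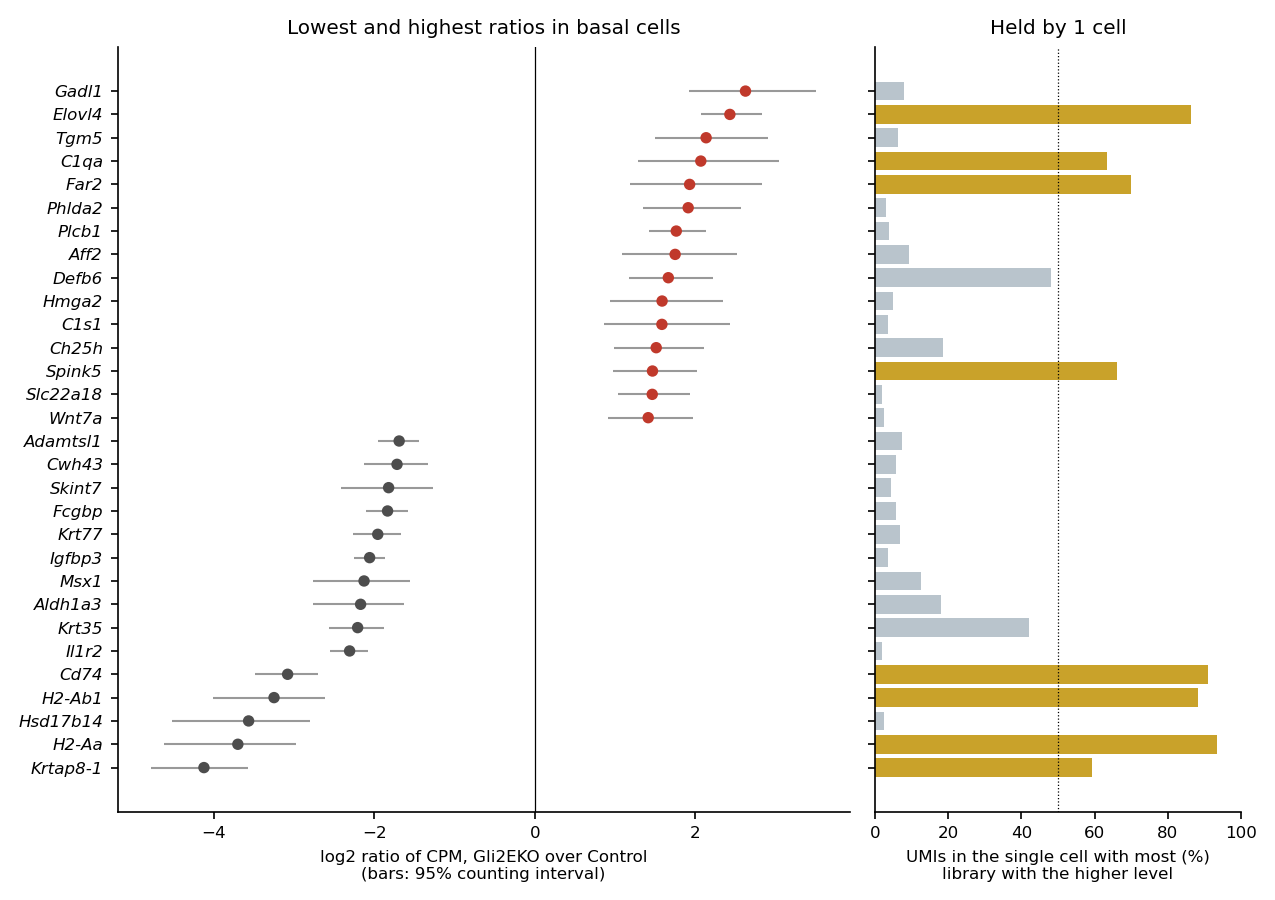
Left, log2 ratio of CPM, Gli2EKO over control, in basal cells with 95% counting intervals for the 15 genes with the lowest and the 15 with the highest ratio; right, percentage of the UMIs of each gene that came from its single top cell, in the library with the higher level. Yellow bars mark 4 genes on either side with over 50% in 1 cell, such as H2-Aa (93.3%) and Elovl4 (86.3%), whereas Il1r2 (1.91%) and Slc22a18 (1.83%) are spread out.

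Markers of other cell types were counted over whole lists. The hair lineage list (0 higher and 8 lower of 12 tested, median log2 ratio -0.88) summed to 894 and 485 CPM, with Krt25 as its most abundant gene (224 and 93.9 CPM) and none of its genes at 0. The 8 lower genes, 66.7% of those tested against 5.35% of all genes, included Krt25, Krt71, Krt27 and Krt28. In control 49.5% and in Gli2EKO 46.3% of these UMIs came from 1 cell. The immune list (0 higher and 3 lower of 4 tested, median log2 ratio -1.15) summed to 75 and 21.3 CPM, with 82.3% of the control sum in 1 cell, Cd74 the most abundant and Trdc at 0. Its lower genes, 75% of those tested, were Cd74, Laptm5 (4.39 and 1.75 CPM) and Tyrobp (8.5 and 4.24 CPM). The melanocyte list (0 higher and 2 lower of 6 tested, median log2 ratio -0.54) summed to 211 and 162 CPM, led by Dct, with 10 cells holding 90.3% of the control and 90.8% of the Gli2EKO UMIs, and its lower genes were Mitf (11.9 and 7.84 CPM) and Mlana (20.6 and 9.96 CPM). Fibroblast genes (2 higher and 3 lower of 9 tested, median log2 ratio -0.29) summed to 1424 and 1347 CPM, of which Sparc, which keratinocytes also express, gave 741 and 684 CPM. Dcn (135 and 239 CPM) and Fbln1 (42.6 and 69.6 CPM) were higher, and Col3a1 (163 and 107 CPM), Col1a2 (161 and 105 CPM) and Lum (21.1 and 13.2 CPM) lower. Of the genes just named as higher or lower, Krt27, Cd74, Laptm5, Tyrobp, Mlana, Col1a2 and Lum changed sign in at least 1 alternative.

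Of the remaining lists, mural genes summed to 82.1 and 80.8 CPM (1 higher and 0 lower of 4 tested, median log2 ratio 0.17), led by Acta2, with Myh11 higher (2.47 and 4.43 CPM, but with the other sign in 2 alternatives), and Schwann genes to 39.5 and 34.1 CPM, nearly all from Erbb3, with 1 gene tested (log2 ratio -0.12). Endothelial genes (3.29 and 5.17 CPM, led by Pecam1) and Merkel genes (0.823 and 0.923 CPM, with Atoh1 at 0) had no gene with 50 UMIs. Follicle keratinocyte genes (2 higher and 3 lower of 17 tested, median log2 ratio -0.20) summed to 2026 and 2692 CPM, against 7333 and 7977 CPM in follicle cells. Krt17 (828 and 1517 CPM, log2 ratio 0.87) and Krt79 (76.8 and 123 CPM, 636 of 1335 Gli2EKO UMIs in 1 cell, and the other sign in 3 alternatives) were higher, and Lgr6, Tbx1 (7.13 and 3.32 CPM) and Cd34 (4.94 and 2.4 CPM) lower. With no follicle gene allowed, Cd34 was level (log2 ratio -0.0011) and Tbx1 was within 1.5-fold (-0.43). The follicle genes of the rule (0 higher and 1 lower of 4 tested, median log2 ratio 0.12) summed to 68.4 and 59.6 CPM, led by Ghr, with Scube2 lower (22.6 and 9.69 CPM). They chose the members, so these values are a description only. The part of cells or RNA of other types in the differences between genotypes was not tested. An alternative chosen after the data were seen, which leaves out members with such markers, called 378 higher and 544 lower genes.

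The 9 interfollicular markers all took part in choosing the members, so their ratios between genotypes are a description only. Of these only Slc24a3, a potassium-dependent sodium and calcium exchanger, passed 1.5-fold (0 higher and 1 lower of 9 tested, median log2 ratio 0.03), at 237 CPM in control and 125 CPM in Gli2EKO cells (log2 ratio -0.92, -1.02 to -0.81). Sox6 (log2 ratio -0.11), Tspear (0.09), Bmpr1b (0.12) and Ptprz1 (-0.24) stayed within 1.5-fold. Among basal keratins (1 higher and 0 lower of 4 tested, median log2 ratio 0.13) Krt17 alone was called. Its log2 ratio fell within 1.5-fold, to 0.31, among members low on the S and G2M lists. Krt15 had 4008 and 3323 CPM (log2 ratio -0.27), while Krt19 was close to nil, with 2 and 3 UMIs.

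The hemidesmosome and basement membrane list (1 higher and 3 lower of 25 tested, median log2 ratio -0.26) summed to 4620.0 and 3619.5 CPM. Its calls were 4% higher and 12% lower, against 3.25% and 5.35% of all genes. Dst, the bullous pemphigoid antigen that ties keratins to the hemidesmosome, was 1.65-fold lower at 746 CPM in control and 451 CPM in Gli2EKO cells (log2 ratio -0.72, -0.78 to -0.67), and it was seen in 428 of 434 control and 672 of 692 Gli2EKO cells. Plec (266 and 185 CPM, -0.52), Col17a1 (-0.41), Itga6 (-0.41) and Itgb4 (-0.37), which build the same structure, did not pass 1.5-fold. Frem1 (6.86 and 3.88 CPM) and Nid1 (11.2 and 7.1 CPM), of the basement membrane, were also lower, and perlecan (Hspg2) was higher, at 43.5 and 67.4 CPM. Frem1 turned to a log2 ratio of 0.37 without the highest doublet scores and to 0.0778 among members low on the S and G2M lists, where Nid1 had 0.00613. The laminin genes Lama3 and Lamb3 were close to level, with log2 ratios of -0.26 and -0.22. In follicle cells Dst had a log2 ratio of -0.20 and in spinous cells of -0.51.

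Cell junction genes (0 higher and 3 lower of 20 tested, median log2 ratio -0.29) summed to 5408 and 4446 CPM. Lower calls were 15% of them, against 5.35% of all genes. Desmoglein 3 (Dsg3, 173 and 109 CPM), claudin 1 (Cldn1, 102 and 66.2 CPM) and connexin 30 (Gjb6, 7.54 and 3.04 CPM) were lower, and desmoplakin (Dsp), the most abundant, had 1366 and 954 CPM. In the guidance and synaptic adhesion list (1 higher and 6 lower of 30 tested, median log2 ratio -0.18) several secreted semaphorins were lower: Sema3d had 103 CPM in control and 41.4 CPM in Gli2EKO cells (log2 ratio -1.31, -1.49 to -1.15), Sema3a 17.8 and 6.64 CPM (-1.42) and Sema3c 257 and 153 CPM (-0.75, -0.85 to -0.66). Sema3f, also secreted, was level (59.2 and 63.8 CPM, log2 ratio 0.11). Sema5a (116 and 71.1 CPM), the netrin receptor Unc5b (11.1 and 5.44 CPM) and Slit3 (40.3 and 26.5 CPM, but with a log2 ratio of 0.40 among members low on the S and G2M lists) were lower too, and midkine (Mdk, 6.58 and 10.5 CPM) was higher. The list had 20% of its genes lower against 5.35% of all genes.

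Of the epidermal transcription factors (0 higher and 5 lower of 30 tested, median log2 ratio -0.22) 16.7% were lower, against 5.35% of all genes. Gata6 (9.05 and 3.23 CPM, log2 ratio -1.48, -2.12 to -0.87), Elf3 (5.21 and 1.38 CPM, -1.88, -2.88 to -1.02), Prdm1 (4.39 and 2.31 CPM), Ehf (12.3 and 8.12 CPM) and Grhl1 (26.3 and 15.7 CPM), factors of differentiation and of the upper follicle, were lower. Trp63 (498 and 401 CPM, log2 ratio -0.31), Klf5 (-0.22) and Klf4 (-0.53) were within 1.5-fold.

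BMP ligands and antagonists are a short list (0 higher and 2 lower of 8 tested, median log2 ratio -0.38), with 25% lower against 5.35% of all genes: Bmp2 had 103 CPM in control and 65.4 CPM in Gli2EKO cells (log2 ratio -0.65, -0.80 to -0.50) and Bmp4 14.8 and 7.75 CPM (-0.93, -1.36 to -0.51), while the activin and BMP antagonist follistatin (Fst) was level at 492 and 501 CPM. Both calls came within 1.5-fold in an alternative. The log2 ratio of Bmp2 was -0.41 among members low on the S and G2M lists, and that of Bmp4 -0.35 with 2 follicle genes allowed. BMP receptors and targets did not pass (0 higher and 0 lower of 13 tested, median log2 ratio -0.11), nor did Notch genes (0 higher and 0 lower of 14 tested, median log2 ratio -0.16). In the TGF-beta list (14 tested, median log2 ratio -0.37) the latent binding proteins Ltbp1 (58.7 CPM in control and 26.4 CPM in Gli2EKO cells, log2 ratio -1.15, -1.37 to -0.93) and Ltbp4 (67.6 and 40.3 CPM) were among the lower genes. Among members without a follicle gene the log2 ratio of Ltbp1 was 0.0406. Both act at the matrix, and the receptor gene Tgfbr2 was level (log2 ratio -0.08). The EGF receptor list (1 higher and 1 lower of 11 tested, median log2 ratio -0.06) held a lower ligand, epigen (Epgn, 62.9 CPM in control and 30.9 CPM in Gli2EKO cells), and a higher one, neuregulin 1 (Nrg1, 9.32 and 22.6 CPM), which was level when the rule was applied to thinned cells (log2 ratio -0.0142). Lrig1, which restrains these receptors and marks upper follicle stem cells, had 189.9 and 129 CPM (log2 ratio -0.56). In the FGF and IGF list (1 higher and 1 lower of 12 tested, median log2 ratio -0.09) both calls were binding proteins of insulin-like growth factors: Igfbp3 was lower, as given above, and Igfbp2 was higher, at 227 CPM in control and 488 CPM in Gli2EKO cells (1.10, 1.02 to 1.18), in 259 of 434 control and 616 of 692 Gli2EKO cells.

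Differentiation lists gave mixed calls. Early differentiation genes (2 higher and 3 lower of 21 tested, median log2 ratio -0.07) summed to 7035 and 7259 CPM. Krt77, the metallothionein Mt4 (26.9 and 10.7 CPM) and desmoglein 1 (Dsg1a, 80.6 and 53.3 CPM) were lower. Cystatin Cst6 (102 and 204 CPM) and Ly6g6c (12.6 and 25.7 CPM) were higher, on the weight of few cells, with 1910 of 2209 Gli2EKO UMIs of Cst6 in 1 cell, and both changed sign in at least 3 alternatives. Cornified envelope genes (0 higher and 2 lower of 6 tested, median log2 ratio -0.13) summed to only 86.9 and 76.3 CPM, with Sprr1b (4.8 and 1.94 CPM, 22 of 35 control UMIs in 1 cell) and Casp14 (7.4 and 4.43 CPM) lower. Sprr1b changed sign in 6 alternatives. Krt1 (319 and 299.5 CPM) and Krt10 (171 and 169 CPM), limited by the rule, were level.

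Activated keratinocyte genes moved both ways (3 higher and 4 lower of 9 tested, median log2 ratio -0.10). Higher calls were 33.3% and lower calls 44.4% of this short list, against 3.25% and 5.35% of all genes. Il1rn, the interleukin 1 receptor antagonist, had 22.4 CPM in control and 11.6 CPM in Gli2EKO cells (log2 ratio -0.94, -1.29 to -0.60). Il33 (21.7 and 14 CPM), Tslp (5.9 and 3.51 CPM) and S100a9 (4.25 and 1.75 CPM) were lower as well, but all 43 control UMIs of Tslp and 26 of 31 of S100a9 came from 1 cell, and without the top cell of each gene both ratios were positive. The chemokine gene Cxcl1 (11.8 and 28.1 CPM), Tnf (2.06 and 5.26 CPM) and Krt6a (20.6 and 43 CPM, with 177 of 466 Gli2EKO UMIs in 1 cell) were higher. Cxcl1 turned to a log2 ratio of -0.49 without the members highest on the stress list, and Krt6a to -2.02 among members without a follicle gene. Stfa1 had 1281 and 1748 CPM (log2 ratio 0.45). Interferon and antigen presentation genes (5 higher and 0 lower of 13 tested, median log2 ratio 0.32) were called higher for Isg15 (6.58 and 15.8 CPM), Bst2 (11 and 18.3 CPM), Irf7 (2.88 and 4.8 CPM), Psmb8 (3.29 and 6.55 CPM) and Ifit1 (0.411 and 4.43 CPM). These 5 genes are 38.5% of those tested, against 3.25% of all genes. The top cell of each gene held 45 of the 171 Gli2EKO UMIs of Isg15, 34 of 198 of Bst2, 21 of 52 of Irf7, 9 of 71 of Psmb8 and 14 of 48 of Ifit1, and 395 UMIs of the whole list lay in 1 Gli2EKO cell against 77 at most in control. Among members without any follicle gene the log2 ratios of Isg15, Bst2, Irf7 and Ifit1 were negative. B2m, of class I presentation, had 104 and 142 CPM (log2 ratio 0.44).

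Stress genes of tissue dissociation (2 higher and 4 lower of 28 tested, median log2 ratio -0.11) summed to 12578 and 13483 CPM. Calls were 7.14% higher and 14.3% lower, against 3.25% and 5.35% of all genes. Atf3 (887 and 526 CPM), Fosb (64.9 and 24.7 CPM), Btg2 (393 and 249.8 CPM) and Socs3 (47 and 30.3 CPM) were lower, and the heat shock gene Hspb1 (1076 and 2061 CPM) and Gadd45b (129 and 219.8 CPM) higher. Their part in other differences was examined only by leaving out the members that scored highest on this list, which called 367 higher and 665 lower genes. It shared 213 of the 377 higher and 413 of the 621 lower calls made over all members. The log2 ratios of Cxcl1, Crabp1, Crabp2 and Mlana, among others, changed sign. That of Hspb1 did too, but Hspb1 is the most abundant gene of the list by which cells were left out.

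Nuclear respiratory chain genes had a median above that of all genes without any gene past 1.5-fold (0 higher and 0 lower of 47 tested, median log2 ratio 0.22), and glycolysis was alike (0 higher and 0 lower of 20 tested, median log2 ratio 0.13). Neither was particular to members. The respiratory chain summed to 13989 and 16257 CPM in follicle, 14560 and 16321 CPM in spinous, and 11371 and 13753 CPM in immune and endothelial cells. Glycolysis summed to 2912 and 3819, 3469 and 4243, and 3493 and 4153 CPM there. Sterol synthesis (1 higher and 1 lower of 22 tested, median log2 ratio -0.14) had Hmgcs1 lower, at 305 and 202 CPM, and Tm7sf2 higher, at 2.88 and 5.81 CPM, but level among members low on the S and G2M lists (log2 ratio -0.0012). In fatty acid and sphingolipid synthesis (4 higher and 2 lower of 21 tested, median log2 ratio -0.15) Sptlc3 (45.4 and 28.7 CPM) and Acsl1 (51.7 and 34 CPM) were lower. Calls there were 19% higher and 9.52% lower, against 3.25% and 5.35% of all genes. Fabp5, an epidermal fatty acid carrier, had 205 and 327 CPM, with 351 of 3542 Gli2EKO UMIs in 1 cell, and Scd1 (8.78 and 18.8 CPM, 77 of 204 in 1 cell), Elovl3 (0.823 and 4.71 CPM, 29 of 51) and Elovl4 were higher, and each of these 3 changed sign in at least 4 alternatives. In the retinoid list (3 higher and 1 lower of 11 tested, median log2 ratio 0.15) Aldh1a3 was lower, and Fabp5 and the binding proteins Crabp1 (4.25 and 7.84 CPM) and Crabp2 (3.43 and 6.83 CPM) higher, the latter pair with the other sign in 2 alternatives each. Of the retinoid genes tested 27.3% were higher and 9.09% lower. Metallothionein and antioxidant genes (0 higher and 2 lower of 11 tested, median log2 ratio -0.09) had Mt4 and Hmox1 (7.13 and 4.24 CPM) lower, with Mt1 at 907 and 1086 CPM.

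**Figure D4:**
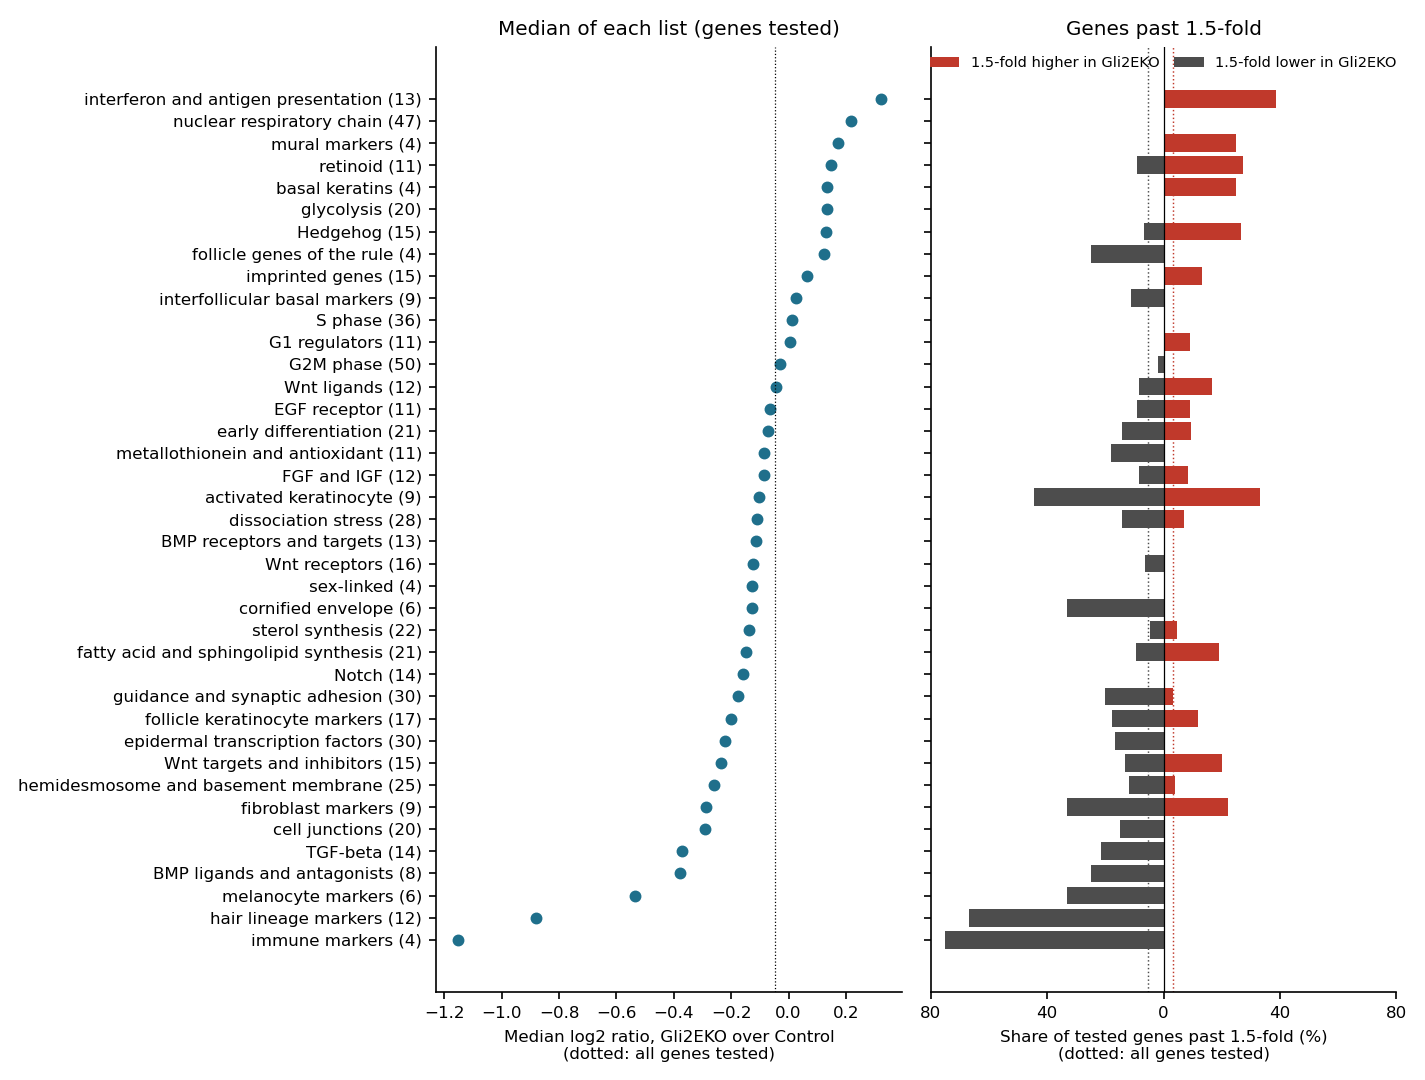
Left, median log2 ratio of CPM, Gli2EKO over control, in basal cells for each list with at least 4 tested genes (number in brackets); right, percentage of tested genes at least 1.5-fold higher (red) or lower (grey), with dotted lines at 3.25% and 5.35%, the shares among all genes tested. The immune and hair lineage lists lie lowest (-1.15 and -0.88), and the interferon list lies highest (0.32). A single cell held 82.3% of the summed immune UMIs in control. For the hair lineage list it was 49.5% in control and 46.3% in Gli2EKO. These shares are of summed UMIs, whereas the medians weigh each gene alike.

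Imprinted genes, expressed from one parental allele, had a pair of calls (2 higher and 0 lower of 15 tested, median log2 ratio 0.06), Igf2 (3.98 and 8.03 CPM) and the cell cycle inhibitor Cdkn1c (18.9 and 30.5 CPM). Both lie in one cluster on chromosome 7 with Phlda2 and Slc22a18 of the named genes. The stretch from H19 to Nap1l4 (GRCm39 chromosome 7, 142129262 to 143102890) was then read gene by gene, a choice made after these values were seen. Of its 11 tested genes 8 were at least 1.5-fold higher in Gli2EKO members and none was lower, with a median log2 ratio of 0.85 against -0.05 for all genes. Besides the genes above these were Ascl2 (3.84 and 7.01 CPM), the non-coding R74862 (4.25 and 9.5 CPM), the tetraspanin Cd81 (129 and 209 CPM) and Tssc4 (26.2 and 47.8 CPM). Nap1l4 (148 and 217 CPM, log2 ratio 0.55) and H19 (943 and 1165 CPM, 0.30) did not pass 1.5-fold. Kcnq1ot1, the paternally expressed antisense RNA of the cluster, had a negative ratio (129 and 113 CPM, -0.19).

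The pattern was also seen outside basal cells. In the same stretch 5 of 9 tested genes were at least 1.5-fold higher in follicle cells (2.36% of all genes there), 6 of 10 in spinous cells (2.49%), 6 of 9 in fibroblasts (4.55%, cells with at least 5 of the fibroblast markers detected) and 3 of 6 in immune and endothelial cells (7.74%). Cd81, for one, had log2 ratios of 0.70 in basal, 0.60 in follicle, 0.94 in spinous cells and 0.72 in fibroblasts. Each library came from its own mice, so genotype and animal cannot be told apart here.

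**Figure D5:**
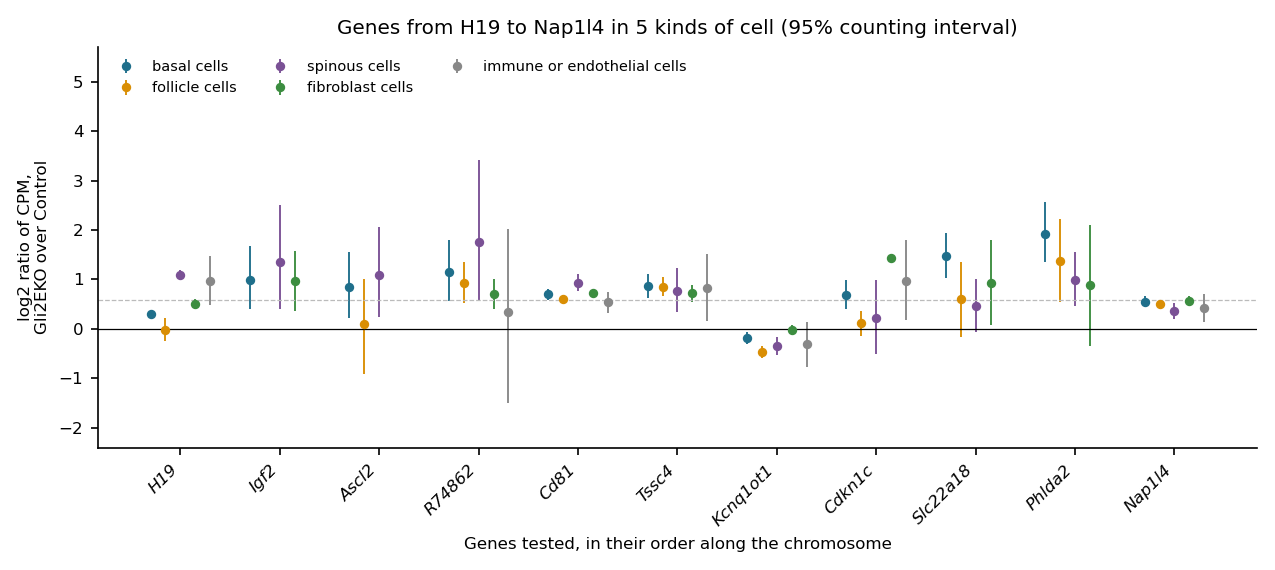
log2 ratio of CPM, Gli2EKO over control, with 95% counting intervals, for the 11 tested genes from H19 to Nap1l4 in their order on the chromosome, in basal, follicle, spinous, fibroblast and immune or endothelial cells; the dashed line marks 1.5-fold, and points whose interval runs off the axis were left out. In basal cells 10 of 11 genes lie above 0, and Kcnq1ot1 lies below it (-0.19).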

How the data were processed

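Measured were 2 single-cell libraries of P2 mouse dorsal epidermis, 1 per genotype, with groups taken from the labels. The authors ran Cell Ranger 9.0.1 against GRCm39 and deposited raw UMI counts of 56694 genes per barcode, without normalization, as the file headers and whole-number values show. The filter on cells used the limits that the study states. Doublets, which the study removed with a tool not run here, were kept, and an alternative left out the 8% of cells scored highest by Scrublet (scanpy 1.11.5). UMIs were summed over members per library and scaled to CPM. Ratios had 0.5 UMIs added to each sum and exact conditional binomial intervals; shares had Clopper-Pearson intervals (scipy 1.17.1, Python 3.11.15). UMIs count transcript ends and were not divided by length.

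A gene was tested if its UMIs in both libraries came to 50 or more, and called at 1.5-fold; against follicle or spinous cells it needed 50 UMIs and 2-fold in each library. Cells are not replicates, so the Wilcoxon test of the study, which treats them so, was not rerun. Named genes were those of the rule, the marker lists and the 31 gene lists, the 15 lowest and 15 highest ratios, and 10 genes each way against follicle and spinous cells. Coordinates come from a GENCODE annotation of the same build. The members and lists were chosen with earlier results of these data known. Interval and ratio code was tested on simulated data.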

Additional observations from a re-analysis of the deposited data

How the results depend on the processing

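The share of members stayed higher in the Gli2EKO library under every alternative. Its ratio was 2.73 with no follicle gene allowed and 2.02 with 2 allowed, and it stayed between 2.02 and 2.73 in all others. With 20 UMIs required of a gene, 810 genes were called higher and 1063 lower, with 200 UMIs 108 and 222, and with a 2-fold limit 116 and 182, as more or fewer genes can pass. Of the 377 higher and 621 lower calls, 159 and 281 were also made with no follicle gene allowed, among 204 control and 387 Gli2EKO members. Among members low on the S and G2M lists (222 and 341), 131 and 252 were. With 200 UMIs required in each library, 316 genes were higher and 620.0 lower than in follicle cells, and 897 higher and 318 lower than in spinous cells. Mki67 or Top2a was detected in 51.4% of control and 50.8% of Gli2EKO members thinned to 5000 UMIs, and in 70.3% and 59.5% without thinning, which discards UMIs. Of 3842 values of named genes under the alternatives, 100 were of called genes and had the other sign, and of the rest 569 moved out of the main interval and 3173 did not. Named genes that were not called, whose ratios lie nearer 0 or rest on few UMIs, had the other sign in 141 values of 40 genes, such as Dct, Shh, Fst and Acta2; for list medians 26 of 740 moved. The log2 ratios of called genes with the other sign follow, and apart from the removal of single cells the cause was not tested. With the highest doublet scores left out: H2-Aa 0.21, H2-Ab1 0.0607, Cd74 0.46, Laptm5 0.93, Tyrobp 0.26, Mlana 1.40, Lum 0.11, Frem1 0.37, Sprr1b 0.86, Tslp 5.58 and Crabp1 -0.0249. With cells thinned to 5000 UMIs before the rule: H2-Ab1 0.11, Elovl4 -1.11, Far2 -1.96, Defb6 -2.46, Spink5 -0.17, Tyrobp 1.13, Krt79 -2.13, Nrg1 -0.0142, Cst6 -1.86, Ly6g6c -1.61, Tslp 2.02, Scd1 -0.23, Elovl3 -0.38 and Crabp2 -0.0637. With 2 interfollicular genes enough: Far2 -0.16, Scd1 -0.85 and Elovl3 -0.26. With 4 interfollicular genes required: Cd74 0.11, Defb6 -0.0972, Laptm5 0.32, Tyrobp 1.69 and Cst6 -1.72. With no follicle gene allowed: Elovl4 -1.21, Far2 -2.32, Spink5 -0.11, Col1a2 0.40, Ltbp1 0.0406, Sprr1b 1.46, Tslp 4.39, Krt6a -2.02, Isg15 -2.15, Bst2 -0.95, Irf7 -2.57, Ifit1 -3.55, Scd1 -0.19 and Elovl3 -0.98. With 2 follicle genes allowed: Defb6 -1.46, Spink5 -0.60, Krt79 -0.34, Cst6 -0.11, Ly6g6c -0.75, Scd1 -0.25 and Elovl3 -0.0134. With Krt1 and Krt10 under 20 per 10000: H2-Aa 0.0534, Cd74 0.32, Elovl4 -0.50, Laptm5 0.26, Tyrobp 1.53, Krt79 -0.36, Cst6 -1.60 and Ly6g6c -1.27. With Krt5 and Krt14 at 50 per 10000 or more: Sprr1b 0.082 and Tslp 5.68. Without the members highest on the stress list: Elovl4 -0.26, Ch25h -0.46, Spink5 -0.0648, Mlana 1.97, Lum 0.0159, Sprr1b 0.80, Tslp 4.90, Cxcl1 -0.49, Hspb1 -0.15, Crabp1 -0.70 and Crabp2 -0.19. Among members low on the S and G2M lists: C1qa -1.60, Wnt5a 0.20, Wif1 0.83, Lum 0.58, Myh11 -3.07, Frem1 0.0778, Nid1 0.00613, Slit3 0.40, Sprr1b 0.96, Tslp 4.95, S100a9 1.89 and Tm7sf2 -0.0012. Without members that carry markers of other cells: H2-Aa 0.0732, Cd74 0.33, Krt27 0.24, Sprr1b 0.0383 and Tslp 5.60. Without the top cell of each gene: Cd74 0.19, Elovl4 -0.24, Tyrobp 0.26, Mlana 0.60, Myh11 -0.57, Cst6 -1.20, Tslp 4.79 and S100a9 0.22. The last 2 settings in this order were chosen after the data were seen. Signs of Ptch1, Gli1, Gli2, Lef1, Il1r2 and Igfbp3 did not turn under any alternative. However, Gli1 came within 1.5-fold with 2 follicle genes allowed (0.53) and Gli2 without the members highest on the stress list (0.52). Other called genes that kept their sign also came within 1.5-fold in an alternative, such as Sfrp1, Ehf and Grhl1. Depth limits genes under 50 UMIs, which were not tested. No paired analysis was possible because there is 1 library per group.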

Other observations

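Windows of 11 consecutive tested genes were read along the genome, 11377 in all, after the values on chromosome 7 were seen. The highest median log2 ratio, Gli2EKO over control, was 0.85, on chromosome 7 from Mrpl23 to Phlda2, with 8 of 11 genes called higher. The highest elsewhere was 0.45, on chromosome 13 from Wrnip1 to Tubb2b, with 3 called. The lowest medians, -5.14 on chromosome 16 and -4.13 on chromosome 11, lay in clusters of hair keratin-associated protein genes. All 14 tested genes of that family were lower in Gli2EKO members. Of their 1764 control UMIs, 1452 (82.3%) came from 1 cell, and Gli2EKO members had 142 UMIs in 86 cells.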
